A study of Homo sapiens with 15 samples.

Results

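The stratified squamous keratins are the intermediate filament proteins of layered epithelia such as skin and oral mucosa, and 10 of their genes are described here in HSC-5 squamous cell carcinoma cells. They were taken by gene symbol from the deposited count tables, which list 60649 genes, and all 10 were present once: KRT5, KRT14, KRT15, KRT4, KRT13, KRT6A, KRT6B, KRT6C, KRT16, and KRT17. The question was how the RNA of each keratin differed between control cells and cells edited at PRMT5 or WDR77, guide by guide.

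HSC-5 is an established line from a cutaneous squamous cell carcinoma. RNA was sequenced from 5 conditions with 3 biological replicates each, 15 libraries in all. The sgNeg cells are the control and have the genotype WT in the labels. The sgPRMT5-1 and sgPRMT5-2 cells are labelled PRMT5 Knockout, the sgWDR77-1 and sgWDR77-2 cells WDR77 Knockout, and all 15 samples list Neomycin as treatment. PRMT5 is an arginine methyltransferase, and WDR77 is its binding partner. PRMT5KO and WDR77KO below stand for the 6 libraries of both guides of a gene. The guides of a gene share their target, so they are not independent conditions, and whether the edited cells were pools or clones is not given in the sources used here.

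Each library held between 5146711 and 6730428 counts in genes. The median was 5806938 for sgNeg, 5974844 for sgPRMT5-1, 6124306 for sgPRMT5-2, 5203698 for sgWDR77-1, and 5527881 for sgWDR77-2. Levels are given as CPM, counts per 1000000 of the library size after TMM scaling, and as CPM per kb of the MANE transcript where genes are compared with each other. A gene with 0 counts could still have had up to 3, which corresponds to 0.458 to 0.578 CPM depending on the library, and this floor covers counting error only. The 10 keratins together took between 0.0726% and 0.201% of the gene counts of a library.

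Keratin filaments are built from pairs of a type II and a type I chain, so an epithelial cell makes both kinds. Dividing basal keratinocytes express KRT5 (type II) with KRT14 and KRT15 (type I), cells above the basal layer of mucosa switch to KRT4 (type II) and KRT13 (type I), and wounded or hyperproliferative epidermis turns on the KRT6 genes (type II) with KRT16 and KRT17 (type I). Squamous carcinomas commonly carry mixtures of these programs.

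The targeted genes were examined first, as a check of the labels. PRMT5 (ENSG00000100462.16, chromosome 14) was at 59.1, 49.6, and 67.8 CPM in sgNeg replicates 1, 2, and 3, 33.0, 35.8, and 41.4 with sgPRMT5-1, 44.2, 44.5, and 39.4 with sgPRMT5-2, 54.5, 64.2, and 54.4 with sgWDR77-1, and 79.9, 65.2, and 64.4 with sgWDR77-2. WDR77 (ENSG00000116455.14, chromosome 1) was at 125, 114, and 119 CPM in sgNeg, 134, 119, and 156 with sgPRMT5-1, 126, 129.9, and 119 with sgPRMT5-2, 30.8, 52.0, and 53.3 with sgWDR77-1, and 26.6, 24.9, and 22.0 with sgWDR77-2. All 6 libraries of each knockout were below every sgNeg library for their own target. PRMT5 RNA fell with sgPRMT5-1 (log2 fold change -0.67, limma voom adjusted p = 0.00543) and with sgPRMT5-2 (-0.45, adjusted p = 0.00262), and WDR77 RNA fell with sgWDR77-1 (-1.43, adjusted p = 0.00113) and with sgWDR77-2 (-2.29, adjusted p = 1.21e-08). The RNA of a target measures editing only in part, because an edited gene can still be transcribed.

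The cell type was checked with markers other than the 10 keratins. All 12 squamous keratinocyte markers were detected, with a summed level of 3119.9 to 3892 CPM per library and PERP as the most abundant (566 to 915 CPM). The 6 fibroblast markers summed to 6.68 to 16.2 CPM, nearly all of it COL1A1, with COL1A2 at 0 in all libraries. The 4 endothelial markers summed to 12.7 to 36.1 CPM, mostly CDH5 (12.3 to 33.6 CPM), with KDR at 0, the 5 leukocyte markers to 0.360 to 1.83 CPM, mostly CD14, with CD3E at 0, and the 4 melanocyte markers to 2.55 to 7.48 CPM, with PMEL the most abundant by mean and TYR and DCT at 0. CDH5 was higher with sgWDR77-1 than in sgNeg (log2 fold change 0.80, limma voom adjusted p = 0.0336), and COL1A1 (-0.66, adjusted p = 0.0148), VWF (-2.28, adjusted p = 0.00264, -2.81 to -1.56 over all alternatives), and PMEL (-1.41, adjusted p = 0.0092) were lower with sgPRMT5-2. The CDH5 call was lost without sgNeg replicates 1, 2, or 3 (limma voom adjusted p = 0.113, 0.139, and 0.0791) or sgWDR77-1 replicates 2 or 3 (0.0647 and 0.0559), the COL1A1 call without sgPRMT5-2 replicates 1 or 2 (0.112 and 0.0748), and the PMEL call without sgPRMT5-2 replicate 2 (0.0848). CDH5 did not pass with sgPRMT5-2 (-0.22, limma voom adjusted p = 0.288) but passed as lower without sgNeg replicate 2 (-0.41, adjusted p = 0.0269). The part of these markers in the keratin results was not tested.

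Of the 10 keratins, 6 had a mean of at least 1 CPM over the 15 libraries. Per kb of transcript, KRT17 was the most abundant, with a mean of 612 CPM per kb, followed by KRT5 at 99.5, KRT15 at 37.1, KRT13 at 7.34, KRT6A at 3.10, and KRT16 at 0.758. KRT14 averaged 0.269 CPM per kb, and KRT4, KRT6B, and KRT6C lay below it. Bulk RNA does not tell apart a smaller share of cells with a transcript from less of the transcript per cell.

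KRT5, KRT15, KRT13, and KRT6A fell with all 4 guides, and KRT17 rose with sgWDR77-2. With sgPRMT5-1, 7 of the 10 keratins had enough counts to be tested, 4 fell and 0 rose, where 2.21% of all 14094 genes tested fell and 1.95% rose. With sgPRMT5-2, 4 of 6 tested fell and 0 rose, where 19.0% of 14180 genes fell and 21.4% rose. With sgWDR77-1, 4 of 6 tested fell and 0 rose, against 1.79% and 0.810% of 14201 genes. With sgWDR77-2, 4 of 7 tested fell and 1 rose, against 2.96% and 1.90% of 14041 genes. A gene was called when its limma voom p-value, adjusted by Benjamini-Hochberg over all genes tested, was at most 0.05. These 4 comparisons share the 3 sgNeg libraries and are therefore not independent of each other. The direction of these 4 falls and of the KRT17 rise was the same with RLE scaling, upper quartile scaling, library totals alone, and TMM factors computed without the keratins.

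**Figure D1:**
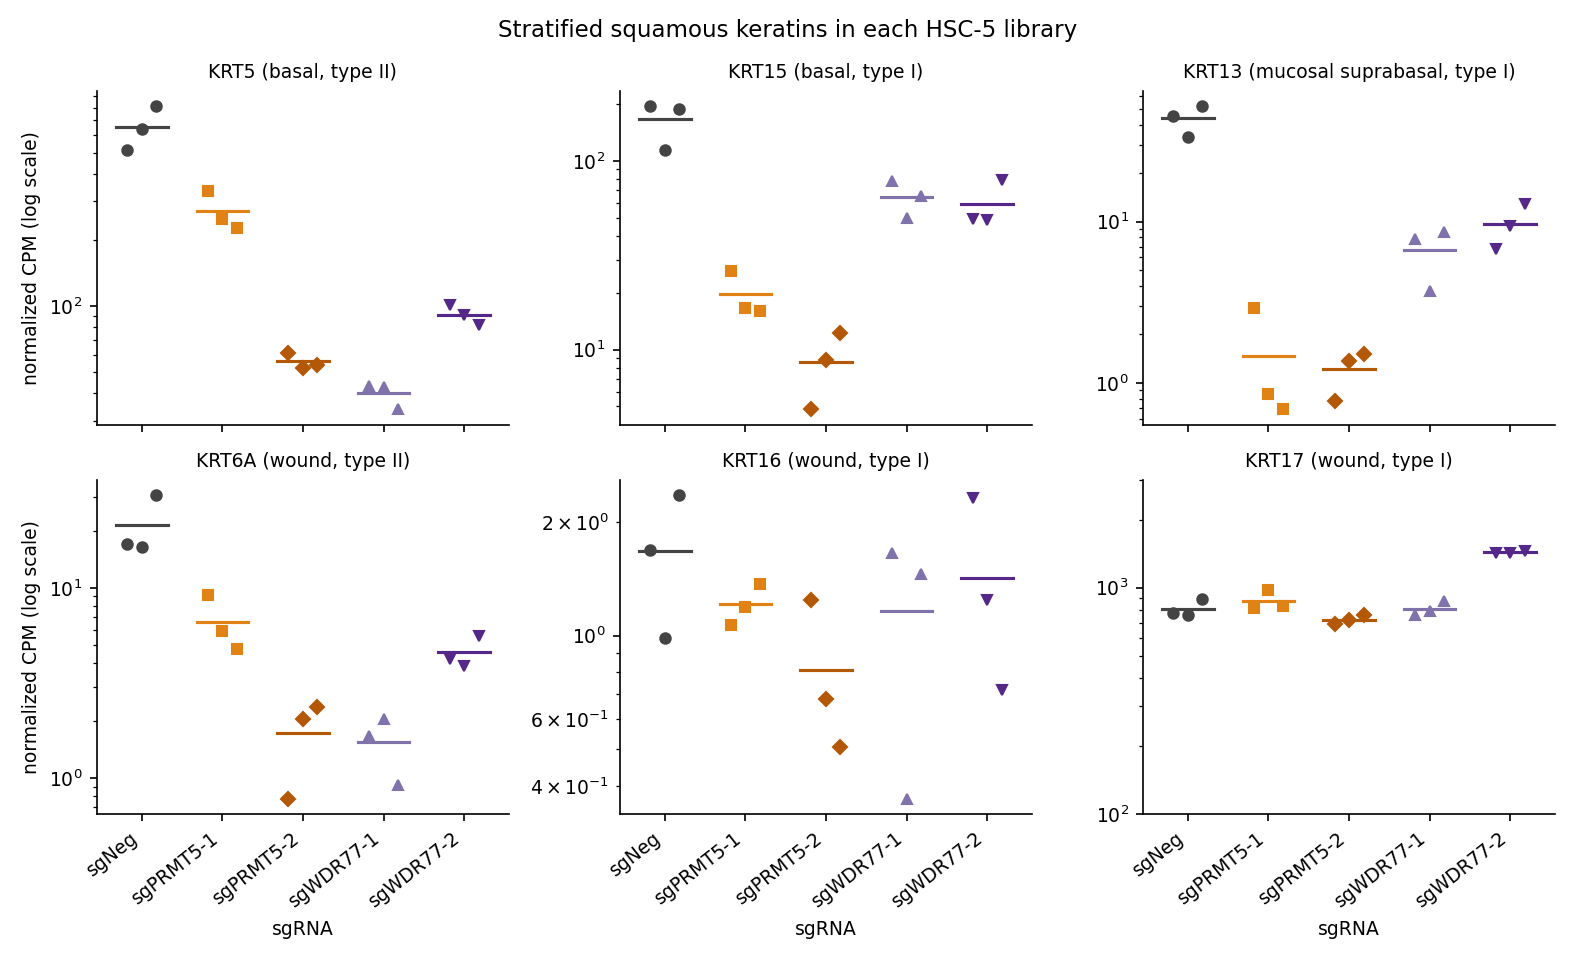
Level of 6 keratins in each of the 15 libraries, in normalized CPM on a log scale with a separate range for each panel. Points are libraries and horizontal lines are group means (n = 3). All libraries of the PRMT5 and WDR77 guides lie below all sgNeg libraries for KRT5, KRT15, KRT13, and KRT6A, while the sgWDR77-2 libraries lie highest for KRT17 (1419.5 to 1453 CPM).

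KRT5 (ENSG00000186081.12, chr12:52514575-52520530, minus strand, 9 exons) encodes the type II keratin of the basal layer. Its level was 512, 638, and 817 CPM in sgNeg, 335, 249.7, and 227 with sgPRMT5-1, 61.3, 52.2, and 54.1 with sgPRMT5-2, 43.4, 42.8, and 33.8 with sgWDR77-1, and 101, 91.0, and 81.9 with sgWDR77-2. No neighbouring groups overlapped in the order from sgNeg through sgPRMT5-1, sgWDR77-2, and sgPRMT5-2 down to sgWDR77-1. The group means were 656 ± 153 CPM (SD, n = 3), 270.3 ± 57.0, 91.3 ± 9.60, 55.9 ± 4.77, and 40.0 ± 5.39 in that order, so the lowest group kept 6.10% of the sgNeg mean and sgPRMT5-1 kept 41.2%. KRT5 was 2.41-fold lower with sgPRMT5-1 (log2 fold change -1.27, 95% CI -1.56 to -0.98, limma voom adjusted p = 3.48e-05). It was 11.5-fold lower with sgPRMT5-2 (-3.52, CI -3.80 to -3.25, adjusted p = 2.64e-13). It was 16.2-fold lower with sgWDR77-1 (-4.02, CI -4.40 to -3.64, adjusted p = 1.04e-07) and 7.07-fold lower with sgWDR77-2 (-2.82, CI -3.13 to -2.52, adjusted p = 1.21e-08). The raw counts behind these values ranged from 185 to 4504, well above the floor.

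The RefSeq promoter table (GRCh38.p14) held entries for 2 of the 10 keratins, KRT5 and KRT4. The 250 bases upstream of the start of the KRT5 MANE transcript, chr12:52520395-52520644 read on the minus strand, are shown because KRT5 had the most counts among the keratins that fell. The MANE transcript starts inside the gene span given above, which includes a longer annotated transcript, so part of these bases lies in that span. Both strands of the 300 bases that also include 50 bases downstream were searched for 4 motifs. The TATA box letters TATAAA occur in 11.5% of the 35116 promoters of this length in the table and the AP-1 letters TGANTCA in 7.71%. The AP-2 letters GCCNNNGGC occur in 23.2% of them and the GC box letters GGGCGG in 45%. None of these letters matched in the KRT5 window, so no base is in capitals, and the KRT4 window held 1 match to the AP-2 letters. Only these letters were searched, so variants of a motif, such as other TATA-like bases, were not counted and may be present.
KRT5 promoter: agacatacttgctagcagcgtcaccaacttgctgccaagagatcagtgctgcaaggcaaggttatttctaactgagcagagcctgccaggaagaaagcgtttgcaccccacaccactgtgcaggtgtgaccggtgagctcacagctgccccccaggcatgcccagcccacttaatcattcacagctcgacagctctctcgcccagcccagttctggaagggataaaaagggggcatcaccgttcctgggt

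KRT14 (ENSG00000186847.6, chr17:41582279-41586895) encodes the type I partner of KRT5 in basal cells. Its counts were 4, 3, and 4 in sgNeg, 3, 3, and 3 with sgPRMT5-1, 2, 1, and 1 with sgPRMT5-2, 4, 1, and 1 with sgWDR77-1, and 3, 2, and 3 with sgWDR77-2. Counts were at or under the floor of 3 in 12 of the 15 libraries, so HSC-5 cells held KRT5 RNA with almost no KRT14 RNA at this depth. Of the 76-base windows of the KRT14 transcript, 9.93% also occur in KRT16 or its pseudogenes, and reads from them are not assigned to a single gene. No fold change is given.

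KRT15 (ENSG00000171346.16, chr17:41513745-41522529) encodes a type I keratin of basal cells that also marks hair follicle progenitors. Its level was 196, 114, and 188 CPM in sgNeg, 26.0, 16.6, and 16.1 with sgPRMT5-1, 4.82, 8.84, and 12.2 with sgPRMT5-2, 78.5, 50.0, and 65.5 with sgWDR77-1, and 49.5, 48.6, and 79.4 with sgWDR77-2. The sgNeg libraries were highest, the libraries of both sgWDR77 guides overlapped in the middle, and the sgPRMT5-1 and sgPRMT5-2 libraries were lowest, without overlap between them. Means were 166 ± 45.3 CPM (SD, n = 3) in sgNeg, 64.7 ± 14.3 with sgWDR77-1, 59.2 ± 17.5 with sgWDR77-2, 19.6 ± 5.55 with sgPRMT5-1, and 8.61 ± 3.69 with sgPRMT5-2. The fall was 8.32-fold with sgPRMT5-1 (log2 fold change -3.06, CI -3.50 to -2.61, limma voom adjusted p = 1.10e-07) and 20.1-fold with sgPRMT5-2 (-4.33, CI -4.96 to -3.70, adjusted p = 1.03e-09). The sgWDR77 guides gave a 2.53-fold fall with sgWDR77-1 (-1.34, CI -1.79 to -0.89, adjusted p = 0.00615) and a 2.79-fold fall with sgWDR77-2 (-1.48, CI -1.91 to -1.05, adjusted p = 0.000445). The sgWDR77-1 call was lost without sgNeg replicate 3, where the log2 fold change was -1.23 with a limma voom adjusted p of 0.0625 (2.14e-05 to 0.0625 over all alternatives). No 76-base window of KRT15 occurs in another gene.

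KRT13 (ENSG00000171401.15, chr17:41500981-41505705) encodes the type I keratin of the suprabasal mucosa. Its level was 45.5, 33.7, and 52.4 CPM in sgNeg, 2.90, 0.849, and 0.685 with sgPRMT5-1, 0.777, 1.36, and 1.52 with sgPRMT5-2, 7.76, 3.70, and 8.58 with sgWDR77-1, and 6.74, 9.36, and 12.8 with sgWDR77-2. The 3 levels did not overlap: sgNeg was highest, the sgWDR77 libraries lay in the middle, and all sgPRMT5 libraries were lowest, at 4 to 19 counts each. The group means were 43.9 ± 9.47 CPM (SD, n = 3) in sgNeg, 9.63 ± 3.03 with sgWDR77-2, 6.68 ± 2.61 with sgWDR77-1, 1.48 ± 1.24 with sgPRMT5-1, and 1.22 ± 0.392 with sgPRMT5-2. KRT13 fell 32.6-fold with sgPRMT5-1 (log2 fold change -5.03, CI -5.99 to -4.06, limma voom adjusted p = 2.43e-06) and 34.6-fold with sgPRMT5-2 (-5.11, CI -6.05 to -4.17, adjusted p = 2.77e-08). The sgPRMT5-1 value was -5.67 without sgPRMT5-1 replicate 1, which had 19 counts against 5 and 4 in the other replicates, and -4.65 to -5.67 over all alternatives. It fell 6.76-fold with sgWDR77-1 (-2.76, CI -3.40 to -2.12, adjusted p = 0.000381) and 4.55-fold with sgWDR77-2 (-2.19, CI -2.69 to -1.69, adjusted p = 4.11e-05). Among the 10 keratins, KRT13 had the largest fitted fold change with each PRMT5 guide. An antisense gene, ENSG00000229732, shares 15.9% of the 76-base windows of KRT13 and had 0 counts in all 15 libraries, and reads from those windows cannot be told apart without the strand setting of the counting.

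KRT4 (ENSG00000170477.13, chr12:52806549-52814116), the type II partner of KRT13 in mucosa, was at 0 counts in 13 of 15 libraries. The exceptions were 4 counts in sgNeg replicate 3 and 1 count in sgPRMT5-1 replicate 2. KRT13 was therefore expressed in sgNeg without detectable KRT4 in sgNeg replicates 1 and 2.

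**Figure D2:**
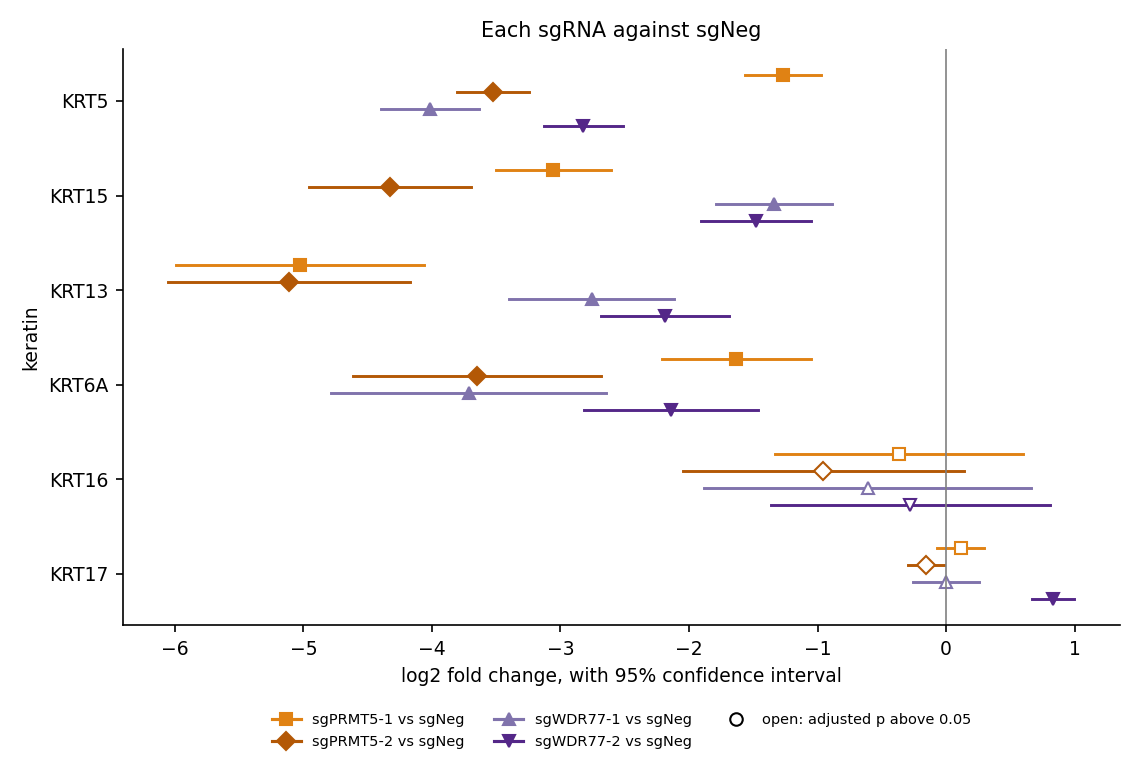
Log2 fold change of 6 keratins for each guide against sgNeg, with 95% confidence intervals from limma voom (3 libraries against 3). Filled symbols have an adjusted p of at most 0.05 and open symbols do not. KRT5, KRT15, KRT13, and KRT6A lie left of 0 with all 4 guides, between -1.27 and -5.11, and KRT17 lies right of 0 with sgWDR77-2 (0.83).

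The wound keratins of type II are encoded by KRT6A (ENSG00000205420.11, chr12:52487176-52493257), KRT6B (ENSG00000185479.6, chr12:52446651-52452146), and KRT6C (ENSG00000170465.10, chr12:52468516-52473805), which are close copies of each other. Their coding sequences are 1695 bases long, and KRT6A differs from KRT6B at 43 bases (97.46% identity) and from KRT6C at 35 (97.94%), while KRT6B and KRT6C differ at 26 (98.47%). The window below, bases 663 to 722 of the coding sequence from GENCODE v44, shows how the copies are told apart. It was chosen as the stretch of its length with the most differing positions, so other stretches are more alike or equally so. Capitals mark the 9 positions at which they are not all alike.
KRT6A: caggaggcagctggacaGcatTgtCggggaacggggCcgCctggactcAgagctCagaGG
KRT6B: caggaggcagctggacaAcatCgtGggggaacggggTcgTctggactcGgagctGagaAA
KRT6C: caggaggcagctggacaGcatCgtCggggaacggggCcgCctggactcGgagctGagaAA

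Over whole transcripts, 25.9% of the 76-base windows of KRT6A, 34.1% of those of KRT6B, and 42.1% of those of KRT6C occur in another gene, and reads from them are not assigned to a single copy. KRT6A was at 16.9, 16.3, and 30.8 CPM in sgNeg, 9.17, 5.94, and 4.79 with sgPRMT5-1, 0.777, 2.04, and 2.37 with sgPRMT5-2, 1.66, 2.04, and 0.912 with sgWDR77-1, and 4.24, 3.89, and 5.58 with sgWDR77-2. All sgNeg libraries were above all guide libraries, sgPRMT5-1 and sgWDR77-2 overlapped in the middle, and sgPRMT5-2 and sgWDR77-1 overlapped at the bottom. The fall was 3.10-fold with sgPRMT5-1 (log2 fold change -1.63, CI -2.21 to -1.05, limma voom adjusted p = 0.00193) and 12.5-fold with sgPRMT5-2 (-3.65, CI -4.61 to -2.69, adjusted p = 3.11e-06). It was 13.1-fold with sgWDR77-1 (-3.71, CI -4.78 to -2.64, adjusted p = 0.00201) and 4.41-fold with sgWDR77-2 (-2.14, CI -2.82 to -1.46, adjusted p = 0.00103). KRT6A had as few as 5 counts in sgPRMT5-2 replicate 1 and in sgWDR77-1 replicate 3.

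KRT6B had 2 counts in sgNeg replicate 1, 1 count each in sgPRMT5-1 replicates 2 and 3 and in sgPRMT5-2 replicate 2, and 0 elsewhere. KRT6C had 1 count in sgPRMT5-1 replicate 1 and 0 in the other 14 libraries. Uniquely assigned KRT6 reads thus came almost entirely from KRT6A. Summing the 3 KRT6 genes gave log2 fold changes of -1.60 with sgPRMT5-1, -3.62 with sgPRMT5-2, -3.72 with sgWDR77-1, and -2.15 with sgWDR77-2.

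KRT16 (ENSG00000186832.9, chr17:41609778-41615899), a type I partner of KRT6, was close to the floor throughout. Its counts were 10, 6, and 13 in sgNeg, 7, 7, and 8 with sgPRMT5-1, 8, 4, and 3 with sgPRMT5-2, 9, 2, and 8 with sgWDR77-1, and 12, 7, and 4 with sgWDR77-2. All 5 groups overlapped with their neighbours in the order of means, which ran from 1.68 ± 0.686 CPM (SD, n = 3) in sgNeg to 0.810 ± 0.385 with sgPRMT5-2. No guide passed the test, with limma voom adjusted p-values of 0.711, 0.156, 0.635, and 0.809 in the order of guides above, and log2 fold changes of -0.37 (CI -1.33 to 0.60), -0.95 (CI -2.05 to 0.14), -0.61 (CI -1.88 to 0.66), and -0.28 (CI -1.37 to 0.80). Each of these intervals includes both no change and a fall as large as that of KRT5 with sgPRMT5-1, so a fall of that size is not excluded at these counts. Over all alternatives, the KRT16 values were -0.70 to -0.10, -1.29 to -0.69, -0.96 to -0.00, and -0.67 to 0.10 in the same order of guides.

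KRT17 (ENSG00000128422.17, chr17:41619442-41624842), a type I keratin of wounded epidermis and of skin appendages, was the most abundant of the 10. Its level was 770.4, 760.3, and 889.9 CPM in sgNeg, 809, 980.2, and 829 with sgPRMT5-1, 690.4, 718, and 760.2 with sgPRMT5-2, 754, 791, and 871 with sgWDR77-1, and 1419.5, 1421, and 1453 with sgWDR77-2. The sgWDR77-2 libraries stood above all others, and the remaining 4 groups overlapped along the order of their means (873 ± 93.4, 807 ± 72.1, 805 ± 59.9, and 723 ± 35.2 CPM for sgPRMT5-1, sgNeg, sgWDR77-1, and sgPRMT5-2), though the highest sgPRMT5-2 library (760.2 CPM) was just below the lowest sgNeg library (760.3 CPM). KRT17 rose 1.78-fold with sgWDR77-2 (log2 fold change 0.83, CI 0.67 to 1.00, limma voom adjusted p = 1.40e-05). The log2 fold change was 0.11 with sgPRMT5-1 (CI -0.07 to 0.30, adjusted p = 0.516), -0.16 with sgPRMT5-2 (CI -0.30 to -0.01, adjusted p = 0.0712), and -0.00 with sgWDR77-1 (CI -0.26 to 0.25, adjusted p = 0.995). A fall of the size seen for KRT5 thus lay outside the interval of KRT17 with each guide. The sgPRMT5-2 value passed the threshold under several alternatives, for example with library totals alone (log2 fold change -0.25, limma voom adjusted p = 0.00368, 0.00368 to 0.295 over all alternatives). Pseudogenes of KRT17 share 4.3% of its 76-base windows.

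Guides of the same gene were then tested against each other, which does not use sgNeg. Between the PRMT5 guides, 4 of the 6 keratins tested were lower with sgPRMT5-2 and 0 were higher, where 9.44% of 13976 genes were lower and 9.54% higher. KRT5 was lower with sgPRMT5-2 by a log2 fold change of -2.26 (CI -2.52 to -2.0, limma voom adjusted p = 1.54e-10), KRT15 by -1.27 (CI -1.79 to -0.75, adjusted p = 0.0014), KRT6A by -2.02 (CI -2.85 to -1.19, adjusted p = 0.00143), and KRT17 by -0.27 (CI -0.40 to -0.14, adjusted p = 0.00529). KRT13 did not pass (-0.09, CI -1.18 to 1.01, adjusted p = 0.928), and its value changed sign over the alternatives (-0.46 to 0.55). KRT16 did not pass either (-0.59, CI -1.62 to 0.44, adjusted p = 0.437). The KRT17 call was lost without sgPRMT5-2 replicate 1, where its limma voom adjusted p was 0.0565 (4.85e-08 to 0.0673 over all alternatives). The RNA of PRMT5 itself did not pass the test between its guides (0.23, CI -0.00 to 0.45, adjusted p = 0.154).

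Between the WDR77 guides, 2 of the 6 keratins tested were higher with sgWDR77-2 and 0 were lower, in a comparison where 0.0999% of 14010 genes were higher and 0.0214% lower, 17 genes in all. Without sgWDR77-1 replicate 1 the comparison had 206 genes, 53.4% of them higher. KRT5 was higher with sgWDR77-2 by a log2 fold change of 1.19 (CI 0.88 to 1.51, limma voom adjusted p = 0.00713) and KRT17 by 0.83 (CI 0.60 to 1.07, adjusted p = 0.00765), with no overlap of libraries for either gene. Both calls were lost when single libraries were left out, while the log2 fold change of KRT5 stayed between 1.08 and 1.27 over all alternatives. Without sgWDR77-2 replicate 1 the limma voom adjusted p was 0.104 for KRT5 and 0.104 for KRT17, and without sgWDR77-2 replicate 2 it was 0.0655 and 0.122 (3.50e-05 to 0.104 for KRT5 and 5.81e-08 to 0.15 for KRT17 over all alternatives). The KRT17 call was also lost without sgWDR77-1 replicate 2 (0.0728) or sgWDR77-2 replicate 3 (0.15), while its log2 fold change stayed between 0.79 and 0.89. KRT6A was higher in all 3 sgWDR77-2 libraries than in all 3 sgWDR77-1 libraries but did not pass (1.57, CI 0.71 to 2.43, adjusted p = 0.178). KRT15 (-0.14, CI -0.58 to 0.30), KRT13 (0.57, CI -0.15 to 1.29), and KRT16 (0.33, CI -1.01 to 1.67) did not pass, and for KRT15 the interval leaves out a difference of the size seen between the PRMT5 guides. WDR77 RNA was lower with sgWDR77-2 in all 3 libraries, without passing the test (-0.85, CI -1.30 to -0.40, adjusted p = 0.169).

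**Figure D3:**
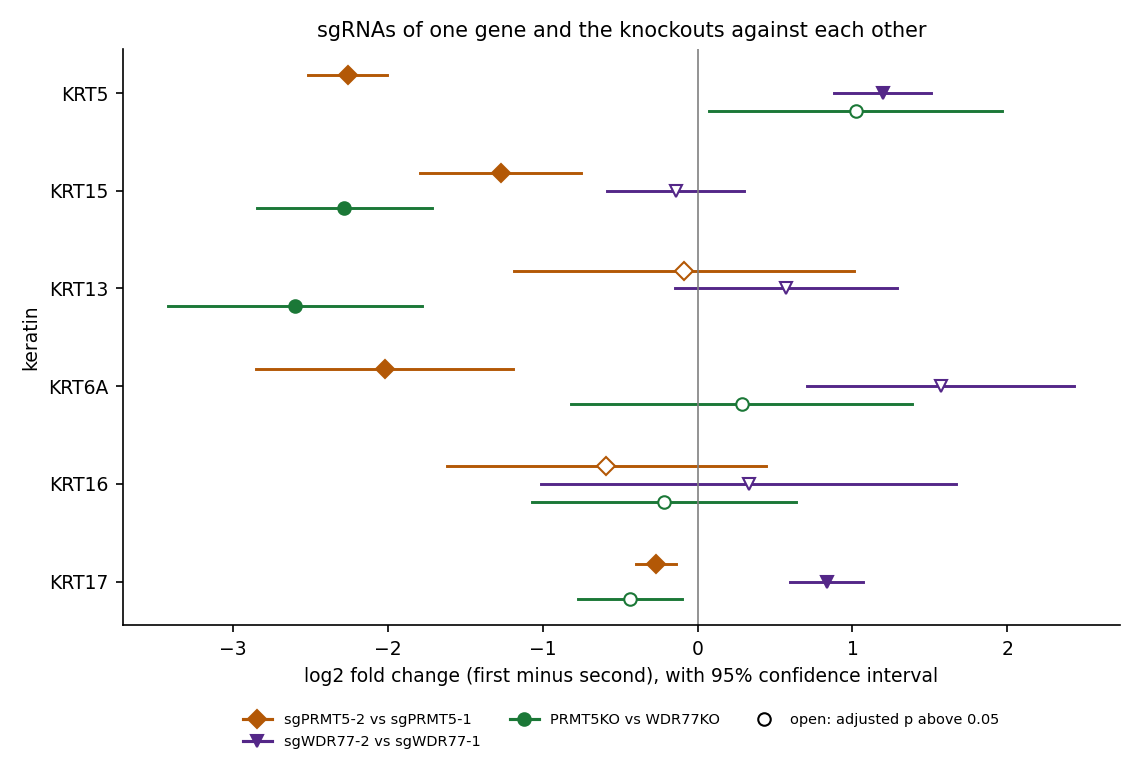
Log2 fold change of 6 keratins between the guides of a gene (3 libraries against 3) and between PRMT5KO and WDR77KO (6 against 6), with 95% confidence intervals from limma voom. Filled symbols have an adjusted p of at most 0.05 and open symbols do not. KRT5 differed between the guides of both genes (-2.26 and 1.19), and KRT15 and KRT13 differed between the knockouts (-2.28 and -2.60).

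PRMT5KO was compared with WDR77KO over the 6 libraries of each, in a test that treats the libraries of both guides as replicates. With 2 guides for each gene, its p-values and intervals do not cover the spread between guides, and they describe these guides only. Of the 6 keratins tested, 2 were lower in PRMT5KO and 0 were higher, where 6.01% of 14015 genes were lower and 7.99% higher. KRT15 had a lowest, median, and highest level of 4.82, 14.1, and 26.0 CPM in PRMT5KO and of 48.6, 57.7, and 79.4 in WDR77KO. KRT13 had 0.685, 1.10, and 2.90 CPM in PRMT5KO and 3.70, 8.17, and 12.8 in WDR77KO. Neither gene overlapped between the knockouts. In this pooled fit, KRT15 was 4.86-fold lower in PRMT5KO (log2 fold change -2.28, CI -2.85 to -1.72, limma voom adjusted p = 6.80e-05) and KRT13 6.06-fold lower (-2.60, CI -3.42 to -1.78, adjusted p = 0.0007).

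KRT5, KRT6A, KRT16, and KRT17 overlapped between the knockouts and did not pass. KRT5 ranged from 52.2 to 335 CPM in PRMT5KO and from 33.8 to 101 in WDR77KO (log2 fold change 1.02, CI 0.07 to 1.97, limma voom adjusted p = 0.128). The values were 0.28 for KRT6A (CI -0.82 to 1.38, adjusted p = 0.745), -0.22 for KRT16 (CI -1.07 to 0.64, adjusted p = 0.752), and -0.44 for KRT17 (CI -0.77 to -0.10, adjusted p = 0.0722). When all 15 libraries entered 1 fit with a separate mean for each guide, KRT5 (limma voom adjusted p = 3.44e-06, 3.44e-06 to 0.253 over all alternatives) and KRT17 (adjusted p = 3.36e-05, 3.36e-05 to 0.155) passed. These p-values do not cover the spread between guides either and describe these guides only. Guide 1 first, the KRT5 means were 270.3 and 55.9 CPM with the PRMT5 guides and 40.0 and 91.3 with the WDR77 guides. Those of KRT17 were 873 and 723 CPM against 805 and 1431. The guide means of the genes thus overlapped for both keratins.

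The 4 keratins that fell with all guides did not share 1 order of groups. KRT5 and KRT6A, both of type II, had the same order of group means, with sgPRMT5-1 and sgWDR77-2 above sgPRMT5-2 and sgWDR77-1. KRT15 and KRT13, both of type I and encoded near each other on chromosome 17, had the WDR77 guides above the PRMT5 guides, with the means of the WDR77 guides in opposite order and their libraries overlapping. KRT17, which rose with sgWDR77-2, followed neither order. Over the 15 libraries, Pearson's r of log2 CPM was 0.938 between KRT5 and KRT6A (Spearman's rho 0.918) and 0.941 between KRT15 and KRT13 (rho 0.914), and it was 0.844 and 0.903 over the 12 libraries without sgNeg. Between KRT5 and KRT15, the basal pair, r was 0.426 (rho 0.343) over the 15 libraries and -0.193 without sgNeg. These values describe 5 groups of 3 libraries that share their guide, so they follow the group means, and 15 pairs of keratins were compared.

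**Figure D4:**
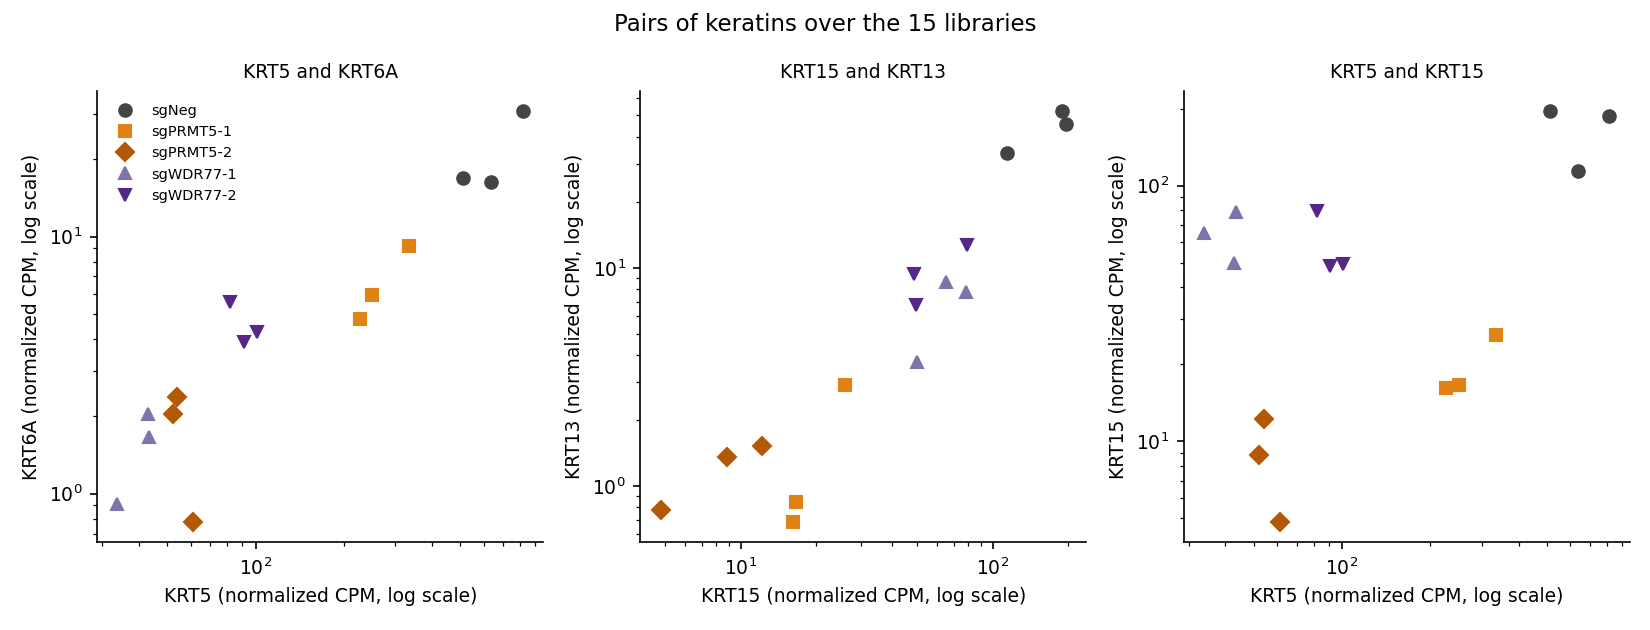
Pairs of keratins in the 15 libraries, in normalized CPM on log axes, with each point a library and each symbol a guide. KRT5 and KRT6A (r = 0.938) and KRT15 and KRT13 (r = 0.941) follow a line, while KRT5 and KRT15 (r = 0.426) do not, with the sgPRMT5-1 libraries high in KRT5 and low in KRT15 and the sgWDR77 libraries the reverse.

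The balance between the basal keratins differed between guides. Per kb of transcript, the ratio of KRT5 to KRT15 was 2.00, 4.30, and 3.33 in sgNeg, 9.86, 11.5, and 10.8 with sgPRMT5-1, 9.72, 4.52, and 3.40 with sgPRMT5-2, 0.423, 0.654, and 0.394 with sgWDR77-1, and 1.56, 1.43, and 0.789 with sgWDR77-2. Both sgWDR77 guides were below sgNeg in every library, sgPRMT5-1 was above it in every library, and sgPRMT5-2 overlapped it. The summed level of the type II keratins divided by that of the type I keratins, also per kb, was 0.460 ± 0.0843 (SD, n = 3) in sgNeg, 0.213 ± 0.0575 with sgPRMT5-1, 0.0535 ± 0.00595 with sgPRMT5-2, 0.0326 ± 0.00657 with sgWDR77-1, and 0.0435 ± 0.00496 with sgWDR77-2. No library with a guide against PRMT5 or WDR77 reached the lowest sgNeg ratio of 0.364. The ratio covers the 10 keratins only. KRT8, another type II keratin, averaged 659 CPM per kb in sgNeg, above the type II sum of 302 used here. With the 4 guides in the same order KRT8 averaged 676, 944, 480.1, and 651 CPM per kb. The type I keratins KRT18 and KRT19, at 593 and 421 CPM per kb in sgNeg, are also left out. A ratio that includes these 3 genes was not computed.

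KRT17 made up 55.7% ± 2.40 (SD, n = 3) of the summed CPM per kb of the 10 keratins in sgNeg, 80.7% ± 4.38 with sgPRMT5-1, 93.7% ± 0.226 with sgPRMT5-2, 89.6% ± 1.99 with sgWDR77-1, and 91.8% ± 0.662 with sgWDR77-2. The share of KRT5 was 30.4% ± 3.97 in sgNeg and 17.0% ± 3.68, 4.92% ± 0.605, 3.04% ± 0.574, and 3.98% ± 0.481 with the 4 guides in the same order. The summed level itself was 958 ± 129.5 CPM per kb in sgNeg and lower in every library with sgPRMT5-1 (712 ± 55.8), sgPRMT5-2 (509 ± 24.2), and sgWDR77-1 (592 ± 36.4). With sgWDR77-2 the sum was 1028 ± 20.8 CPM per kb, within the sgNeg range of 880.1 to 1108, and it was almost wholly KRT17.

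**Figure D5:**
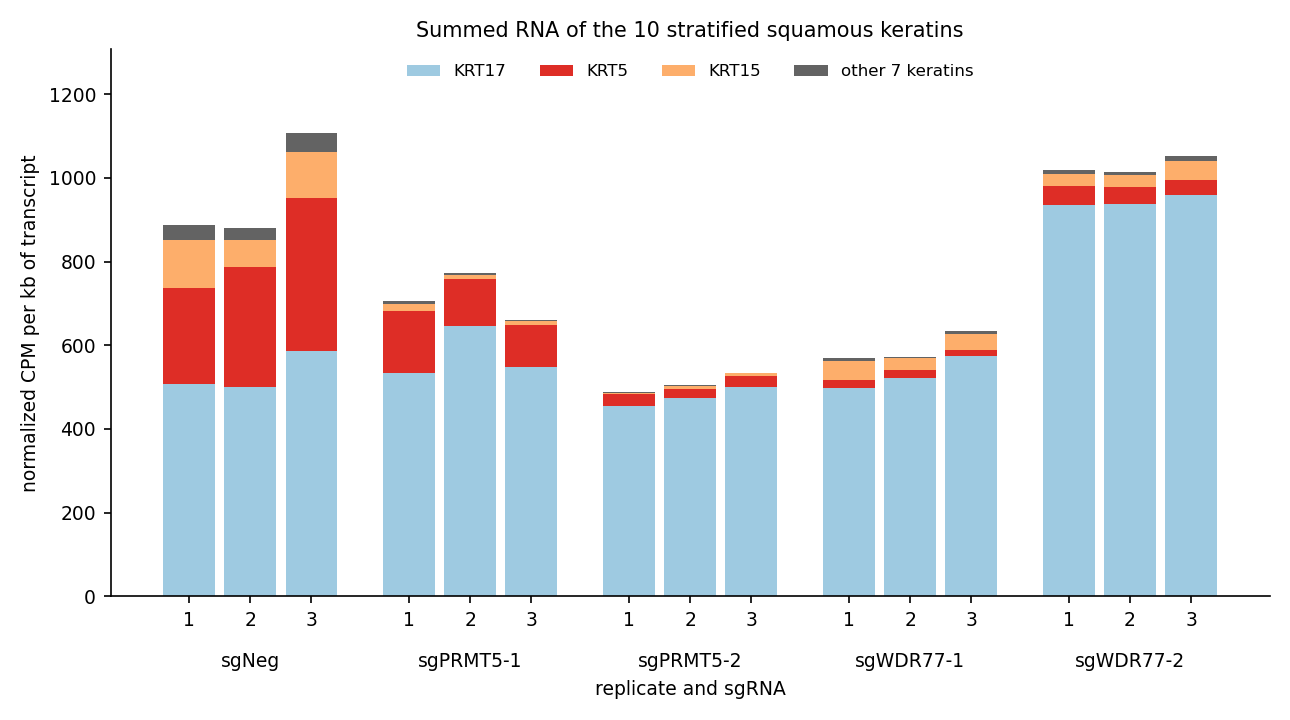
Summed level of the 10 keratins in each library, in normalized CPM per kb of transcript, stacked by gene with the 7 less abundant keratins together. KRT17 makes up between 53.0% and 57.3% of each sgNeg bar and between 75.7% and 93.9% of each bar of the PRMT5 and WDR77 guides.

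For each keratin with a mean of at least 1 CPM, the 3 genes with the most similar pattern were found by Pearson's r of log2 CPM over the 15 libraries, among 12801 genes, as a description. KRT5 was most like KRT19 (0.951), MYLK (0.944), and ANXA8 (0.944), and KRT6A was most like DKK3 (0.948), KRT19 (0.937), and COMTD1 (0.923). KRT15 was most like PLTP (0.969), UBQLN2 (0.956), and CLU (0.951), and KRT13 was most like CD24 (0.968), PCDH7 (0.952), and GALNT5 (0.949). KRT17 was most like FOS (0.853), CCN2 (0.844), and WFS1 (0.826), and KRT16, at its low counts, like H2AC11 (0.876), C19orf44 (0.778), and TMEM109 (0.770). KRT5 and KRT6A thus shared KRT19 among their nearest genes. PLTP, UBQLN2, and GALNT5 had means of 1.19, 1.33, and 1.56 CPM, close to the minimum of 1 CPM. As the highest among 12801 genes, these correlations are high in part by selection.

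The 10 keratins lie in the type II cluster on chromosome 12 and the type I cluster on chromosome 17. Of 48 other genes within 100000 bases of a member, 4 had a mean of at least 1 CPM: KRT8, KRT19, EIF1, and HAP1. KRT19, a type I keratin of simple epithelia whose gene lies 1088 bases from KRT15, fell with all 4 guides (log2 fold change -0.47 with sgPRMT5-1, -1.26 with sgPRMT5-2, -1.04 with sgWDR77-1, and -0.82 with sgWDR77-2). KRT8, a type II keratin of simple epithelia, was higher with sgPRMT5-2 (0.52, limma voom adjusted p = 1.57e-06) and did not pass with the other guides, although it passed as lower with sgWDR77-1 without sgWDR77-1 replicate 1 (0.0613 with all libraries, 0.0129 without it). EIF1 and HAP1 passed the test with none of the guides. Of the 5 simple epithelial keratins, 4 were tested, with 1 higher and 1 lower with sgPRMT5-1, 3 and 1 with sgPRMT5-2, 1 and 2 with sgWDR77-1, and 1 and 1 with sgWDR77-2. For this and the lists below, the shares of all genes tested that were higher and lower were 1.95% and 2.21% with sgPRMT5-1, 21.4% and 19.0% with sgPRMT5-2, 0.810% and 1.79% with sgWDR77-1, and 1.90% and 2.96% with sgWDR77-2. Their median log2 fold changes were 0.02, 0.51, -0.49, and -0.08, where the medians over all genes tested were 0.02, 0.01, -0.01, and 0.02. KRT7 rose with all 4 guides (0.79, 1.34, 1.22, and 1.00) while the stratified KRT5 fell, and its sgWDR77-1 call was lost without sgNeg replicates 2 or 3 (limma voom adjusted p = 0.0986 and 0.106). KRT18, 1 of the 2 lower with sgWDR77-1 (-0.53, adjusted p = 0.0377), was lost without sgNeg replicates 1, 2, or 3 (0.187, 0.0737, and 0.24) or sgWDR77-1 replicates 2 or 3 (0.0798 and 0.0502). It was higher with sgPRMT5-2 (0.51, limma voom adjusted p = 3.85e-06), a call kept in all alternatives.

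Of 14 other keratins of stratified epithelia, such as the cornifying pair KRT1 and KRT10, 2 had enough counts to be tested, KRT10 and KRT80. With sgPRMT5-2, 1 of them was higher and 0 were lower, KRT80 at a log2 fold change of 0.82 (limma voom adjusted p = 1.69e-07), and with the other guides 0 were higher and 0 lower. Without sgNeg replicate 3, KRT80 also passed with sgPRMT5-1 (limma voom adjusted p = 0.0432). The medians were 0.21 and 0.43 with the PRMT5 guides and -0.05 and 0.12 with the WDR77 guides, guide 1 first. KRT1 had 0 counts in all libraries, so the fall of the basal keratins was not accompanied by detectable RNA of this suprabasal keratin. Its partner KRT10 was detected in all groups, with means of 25.0 CPM in sgNeg, 26.1 and 25.7 with the PRMT5 guides, and 20.5 and 25.4 with the WDR77 guides. KRT10 passed with none of the guides (log2 fold changes 0.07, 0.04, -0.31, and 0.02).

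All 12 genes of keratin filament anchors and linkers, which tie the filaments to desmosomes and hemidesmosomes, were tested. With sgPRMT5-1, 0 were higher and 1 lower, with sgPRMT5-2 4 and 3, with sgWDR77-1 0 and 2, and with sgWDR77-2 1 and 0, with medians of 0.02, 0.07, 0.00, and -0.01. With sgPRMT5-2 these counts stand against 21.4% of all genes higher and 19.0% lower. With a library left out, the numbers higher and lower were 0 to 1 and 1 with sgPRMT5-1, 3 to 4 and 3 to 4 with sgPRMT5-2, 0 to 1 and 0 to 2 with sgWDR77-1, and 0 to 1 and 0 to 1 with sgWDR77-2. PKP1, a desmosomal plaque protein of stratified epithelia, had a mean of 8.84 ± 3.19 CPM (SD, n = 3) in control libraries and fell to 2.14 ± 0.224 with sgPRMT5-1, 1.22 ± 0.245 with sgPRMT5-2, and 2.58 ± 0.480 with sgWDR77-1 (limma voom adjusted p = 0.00371, 4.74e-05, and 0.0347). With sgWDR77-2 it was at 4.86 ± 1.25 CPM and did not pass (adjusted p = 0.155). The sgWDR77-1 call was lost without sgNeg replicates 1 or 3 (limma voom adjusted p = 0.116 and 0.149) or sgWDR77-1 replicates 2 or 3 (0.118 and 0.0538), and PKP1 passed with sgWDR77-2 without sgNeg replicate 2 (0.0491). The other gene lower with sgWDR77-1, PKP3 (log2 fold change -0.65, adjusted p = 0.0394), named after its values were seen, was lost without sgNeg replicates 1, 2, or 3 (0.0954, 0.104, and 0.247) or sgWDR77-1 replicate 2 (0.094).

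DST, a linker of keratins to hemidesmosomes and far more abundant than PKP1 in CPM, went the other way. It rose with sgPRMT5-2 (log2 fold change 0.42, limma voom adjusted p = 7.04e-05) and sgWDR77-2 (0.44, adjusted p = 0.0146) and did not pass with sgPRMT5-1 (0.28, adjusted p = 0.0569) or sgWDR77-1 (0.54, adjusted p = 0.0722). The sgWDR77-2 call was lost without sgNeg replicate 1 or sgWDR77-2 replicate 2 (0.0627 and 0.0662), while DST passed with sgPRMT5-1 without sgNeg replicate 2 (0.0252) and with sgWDR77-1 without sgWDR77-1 replicates 1 or 3 (0.0253 and 0.0314). PLEC (0.57) and PKP2 (0.31) rose and PPL (-0.38) fell with sgPRMT5-2, and these 3 did not pass with the other guides. DSP, which anchors keratins to desmosomes, and JUP passed with none of the guides, although DSP passed with sgPRMT5-2 without sgNeg replicate 1 (-0.13 with all libraries, adjusted p = 0.0168 without it).

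Of 20 transcription factors of keratinocytes, 18 were tested, with 1 higher and 3 lower with sgPRMT5-1, 3 and 7 with sgPRMT5-2, 1 and 0 with sgWDR77-1, and 0 and 3 with sgWDR77-2. The medians were -0.01, -0.15, -0.11, and 0.07, and with sgPRMT5-2 the counts stand against 21.4% of all genes higher and 19.0% lower. TP63, the master regulator of stratified epithelium and of KRT5 and KRT14, did not pass with any guide, at log2 fold changes of 0.16, -0.07, 0.30, and 0.09, although the sgPRMT5-2 value passed with library totals alone (limma voom adjusted p = 0.0364). SOX2 fell with sgPRMT5-1 (-1.21, limma voom adjusted p = 0.00296), sgPRMT5-2 (-2.35, adjusted p = 8.31e-07), and sgWDR77-2 (-0.97, adjusted p = 0.0233) and did not pass with sgWDR77-1 (-0.86, adjusted p = 0.0691). TFAP2C fell with the same 3 guides (-0.52, -0.84, and -0.53) and did not pass with sgWDR77-1 (-0.48, adjusted p = 0.08). FOSL1, an AP-1 subunit, rose with the PRMT5 guides (0.50 and 1.69), and ELF3 fell with them (-0.36 and -1.21). JUNB (-0.72) and EHF (-0.22, adjusted p = 0.0431) fell with sgPRMT5-2 and did not pass with the other guides, and NFE2L2 and GRHL2 passed with none, although GRHL2 passed as lower with sgPRMT5-2 with library totals alone (-0.22, adjusted p = 0.0124).

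Several of these calls changed when a library was left out. The numbers higher and lower were then 0 to 1 and 1 to 3 with sgPRMT5-1, 3 to 4 and 5 to 7 with sgPRMT5-2, 0 to 2 and 0 to 3 with sgWDR77-1, and 0 to 1 and 1 to 3 with sgWDR77-2. With sgPRMT5-1, TFAP2C was lost without sgNeg replicates 1 or 3 (limma voom adjusted p = 0.0626 and 0.0598) or sgPRMT5-1 replicates 2 or 3 (0.0716 and 0.0677), ELF3 without the same libraries (0.0964, 0.0826, 0.0961, and 0.0698), and FOSL1 without sgNeg replicate 1 or sgPRMT5-1 replicate 3 (0.16 and 0.105). With sgPRMT5-2, EHF was lost without sgNeg replicates 1 or 2 (0.191 and 0.0634) or any sgPRMT5-2 library (0.135, 0.0651, and 0.151), and NFE2L2 passed without sgNeg replicate 1 (0.0468). With sgWDR77-2, SOX2 was lost without sgNeg replicates 1 or 3 (0.0767 and 0.0667) or sgWDR77-2 replicates 1 or 2 (0.0642 and 0.0747), and TFAP2C without sgNeg replicates 1 or 3 (0.0513 and 0.0698) or sgWDR77-2 replicate 2 (0.0659). KLF5, named after its values were seen, was lower with sgPRMT5-2 (-0.725, limma voom adjusted p = 3.40e-06) and sgWDR77-2 (-0.691, adjusted p = 0.00147). Both calls were kept in all alternatives. It did not pass with sgPRMT5-1 (-0.39, adjusted p = 0.0585) or sgWDR77-1 (-0.27, adjusted p = 0.459). Without sgWDR77-1 replicate 1, SOX2 (0.0242), TFAP2C (0.0391), and KLF5 (0.0152) passed as lower with sgWDR77-1. The 1 gene higher with sgWDR77-1 was TFAP2A (log2 fold change 0.67, adjusted p = 0.0295), which was lost without sgNeg replicates 1, 2, or 3 (0.106, 0.122, and 0.184), and ZNF750, lower with sgPRMT5-2 (-1.02, adjusted p = 0.0142), was lost without sgPRMT5-2 replicate 1 (0.136), both named after their values were seen. The direction of each of these calls was the same in all alternatives.

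Of 17 genes that accompany KRT6 and KRT16 in wounded or hyperproliferative epidermis, 9 were tested with sgPRMT5-1, 10 with sgPRMT5-2, 10 with sgWDR77-1, and 9 with sgWDR77-2. With sgPRMT5-1, 3 were higher and 0 lower, with sgPRMT5-2 6 and 4, with sgWDR77-1 1 and 0, and with sgWDR77-2 3 and 0, with medians of 0.14, 0.67, 0.20, and 0.24. With sgPRMT5-2 these counts stand against 21.4% of all genes higher and 19.0% lower. With a library left out, the numbers higher and lower were 2 to 3 and 0 to 1 with sgPRMT5-1, 6 and 3 to 4 with sgPRMT5-2, 0 to 3 and 0 with sgWDR77-1, and 2 to 3 and 0 with sgWDR77-2. With the replicate number as a block, they were 4 and 3, 6 and 4, 1 and 0, and 2 and 0 in the same order of guides. S100A2, the most abundant of them in CPM, rose with sgPRMT5-1 (log2 fold change 0.41, limma voom adjusted p = 0.0179), sgPRMT5-2 (0.65, adjusted p = 3.61e-07), and sgWDR77-2 (0.41, adjusted p = 0.0256) and did not pass with sgWDR77-1 (-0.35, adjusted p = 0.143). Its sgPRMT5-1 call was lost without sgNeg replicate 2 (0.0801) or sgPRMT5-1 replicates 2 or 3 (0.0874 and 0.0796), and its sgWDR77-2 call without sgNeg replicates 2 or 3 (0.101 and 0.0555) or sgWDR77-2 replicates 1 or 2 (0.0538 and 0.128). IL1B, a cytokine released by injured keratinocytes, rose with sgPRMT5-1 (1.27, limma voom adjusted p = 1.10e-07), sgPRMT5-2 (2.29, adjusted p = 1.81e-14), and sgWDR77-2 (0.64, adjusted p = 0.00314). HBEGF, a growth factor of wound edges, rose with the same guides (0.76, 2.42, and 0.68), and without sgWDR77-1 replicate 1 it also passed with sgWDR77-1 (0.52 with all libraries, adjusted p = 0.017 without this library). AREG (1.19) and TGFA (0.70) rose with sgPRMT5-2 and did not pass with the other guides. IL36G, named after its values were seen, also rose with sgPRMT5-2 (3.08, adjusted p = 0.00124, 1.99 to 3.38 over all alternatives). It did not pass with sgWDR77-1 (1.73, adjusted p = 0.478) but did without sgWDR77-1 replicate 1 (3.06, limma voom adjusted p = 0.0306). Its sgNeg libraries held at most 1 count each, under the floor of 3, so the size of these fold changes is uncertain. KRT6A fell in each of these comparisons, and KRT16 did not pass.

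Other genes of this list fell with sgPRMT5-2, as did KRT6A. LCN2 fell with sgPRMT5-2 (log2 fold change -1.16, limma voom adjusted p = 5.19e-06) and rose with sgWDR77-1 (1.12, adjusted p = 0.0174), a call lost without sgNeg replicates 2 or 3 (0.11 and 0.149). With sgPRMT5-1, LCN2 did not pass (-0.66, adjusted p = 0.0848) but did without sgNeg replicate 3 or sgPRMT5-1 replicate 1 (0.0428 and 0.0263). The other 3 that fell with sgPRMT5-2, named after their values were seen, were S100A9 (-1.64), SERPINB4 (-1.86), and SERPINB3 (-3.01, -3.65 to -1.72 over all alternatives), the last lost without sgPRMT5-2 replicate 1 (0.0546).

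Among the 12 squamous keratinocyte markers, 1 was higher and 2 lower with sgPRMT5-1, 3 and 4 with sgPRMT5-2, 0 and 2 with sgWDR77-1, and 1 and 1 with sgWDR77-2, with medians of 0.04, -0.05, 0.03, and -0.07. With sgPRMT5-2 these counts stand against 21.4% of all genes higher and 19.0% lower. With a library left out, the numbers higher and lower were 0 to 1 and 1 to 2 with sgPRMT5-1, 2 to 3 and 4 with sgPRMT5-2, 0 and 1 to 2 with sgWDR77-1, and 0 and 1 to 2 with sgWDR77-2. DSG3, a desmosomal cadherin of the lower epidermis, fell with all 4 guides, as did KRT5 (log2 fold change -0.49, -0.87, -0.99, and -0.66), though its sgPRMT5-1 call was lost without sgNeg replicates 2 or 3 (limma voom adjusted p = 0.0866 and 0.0767) or sgPRMT5-1 replicates 2 or 3 (0.149 and 0.0571). Its group means were 55.4 ± 4.61 CPM (SD, n = 3) in sgNeg and 39.4 ± 5.56, 30.2 ± 3.18, 27.9 ± 1.92, and 35.1 ± 4.53 with the guides in the same order.

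SFN, more abundant in CPM than DSG3, rose with sgPRMT5-1 (log2 fold change 0.39, limma voom adjusted p = 0.0159), sgPRMT5-2 (0.45, adjusted p = 3.42e-05), and sgWDR77-2 (0.34, adjusted p = 0.0433) and did not pass with sgWDR77-1 (adjusted p = 0.989). Its sgPRMT5-1 call was lost without sgNeg replicate 2 (0.0671) or sgPRMT5-1 replicates 2 or 3 (0.0859 and 0.0571), and its sgWDR77-2 call without sgNeg replicates 1, 2, or 3 (0.0638, 0.14, and 0.0551) or sgWDR77-2 replicates 1, 2, or 3 (0.0957, 0.119, and 0.063). With sgPRMT5-2, ITGB4 rose (0.25, adjusted p = 0.00718) and PERP fell (-0.24, adjusted p = 0.00531), and neither passed with the other guides. The PERP call was lost when all 15 libraries entered 1 fit (0.106), and ITGB4 passed with sgWDR77-2 with no filter on low counts (0.0305). CDH3 and COL17A1 passed with none of the guides, although COL17A1 passed as lower with sgWDR77-2 with library totals alone (0.0494).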

How the data were processed

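RNA of 15 HSC-5 samples was sequenced in 76-base single-end reads. The authors used STAR on the hg38 genome and HTSeq, and the deposited tables give whole-number counts for each gene, without normalization. The labels name a stranded mRNA kit and the methods a kit that does not mark strand, and the annotation release and strand setting are not given in the sources used here. Library sizes and tests left out the summary entries for reads without a gene (2.75% to 7.16% of those listed), with several genes (7.09% to 7.93%), and with several alignments (9.49% to 13.1%). Reads without a gene made up 7.16% in sgNeg replicate 2, 6.04% and 5.70% in sgWDR77-1 replicates 2 and 3, and at most 4.26% elsewhere. The part of this difference in the calls was not tested.

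The authors tested genes with DESeq2. Each comparison was fitted here with limma voom (limma 3.58.1, R 4.3.3), a choice set by the file format of the tables alone, since their values are counts that suit count models. TMM factors came from all 15 libraries, with trims of 0.3 on log ratios and 0.05 on mean levels. Genes with a mean normalized count of at least 3 over the libraries compared were tested, and p-values were adjusted by Benjamini-Hochberg over all of them, with a threshold of 0.05. Pearson's r used log2 CPM with a prior count of 2. The fit was tested on simulated counts. Replicates of a group differed beyond counting noise (chi-square per degree of freedom 1.55 to 17.7 over 15 pairs), so no pair was treated as 1 library. The highest values, 12.5 and 17.7, were between sgWDR77-1 replicate 1 and sgWDR77-1 replicates 2 and 3.

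The 10 keratins and the gene lists were chosen with earlier results of these data known. The genes named from a list are taken from the 6 with the highest mean level and any called in the same direction with both guides of a gene, besides those said to be named after their values were seen. Genes within 100000 bases of a keratin were looked up after the values were seen. Of the 60649 gene identifiers, 60507 matched GENCODE v44, which gave coordinates, transcript lengths, and shared 76-base windows. Alternatives were 4 other scalings, 2 other count filters, a replicate block, a fit of all 15 libraries, limma-trend, the counts of KRT6A, KRT6B, and KRT6C summed, and each library left out.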

Additional observations from a re-analysis of the deposited data

Results flagged for a closer look

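In the 6 libraries of PRMT5KO, KRT4 was at 0 counts except for 1 count in sgPRMT5-1 replicate 2, and KRT6C was at 0 except for 1 count in sgPRMT5-1 replicate 1. A single count among 0 counts always lies apart by the whole range of its group (a gap of 1.00 of the range for both genes), so these values say nothing about the libraries.

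The guides of a gene differed in 6 tests of the difference itself. Between sgPRMT5-2 and sgPRMT5-1 the log2 fold change was -2.26 for KRT5, -1.27 for KRT15, -2.02 for KRT6A, and -0.27 for KRT17. Between sgWDR77-2 and sgWDR77-1 it was 1.19 for KRT5 and 0.83 for KRT17, and these calls were lost without sgWDR77-2 replicate 1, where the adjusted p from limma voom was 0.104 for both (3.50e-05 to 0.104 for KRT5 and 5.81e-08 to 0.15 for KRT17 over the alternatives), while the log2 fold changes stayed between 1.08 and 1.27 for KRT5 and between 0.79 and 0.89 for KRT17. The KRT17 call between the PRMT5 guides was lost without sgPRMT5-2 replicate 1 and with all 15 libraries in 1 fit (limma voom adjusted p 4.85e-08 to 0.0673 over all alternatives). In the fit that pools the 2 guides of a gene, and whose p-values do not cover the spread between guides, PRMT5KO minus WDR77KO was -2.28 for KRT15 and -2.60 for KRT13.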

How the results depend on the processing

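Of 25 called keratin results, 21 stayed past the threshold in all alternatives, 9 of 387 alternative values lost the call, and 0 reversed. Of 19 keratin results that did not pass, 16 stayed so, and 10 of 299 values gained a call. The lost calls were KRT15 with sgWDR77-1, KRT17 between the PRMT5 guides, and KRT5 and KRT17 between the WDR77 guides. The gained calls were KRT17 with sgPRMT5-2, including without sgNeg replicate 1 or 2 (limma voom adjusted p = 0.0315 and 0.0105, 0.00368 to 0.295 over all alternatives), and KRT5 and KRT17 between the knockouts, where KRT17 also passed with library totals alone (0.0451), without sgPRMT5-1 replicate 2 (0.0443), and without sgWDR77-1 replicate 1 (0.0281, 3.36e-05 to 0.155 over all alternatives). KRT17 between the PRMT5 guides was lost when all 15 libraries entered 1 fit (0.0673). The summed KRT6 genes fell on the same side of the threshold as KRT6A alone in all 7 comparisons. At this depth, KRT14, KRT4, KRT6B, and KRT6C had 3 or fewer counts in 12, 14, 15, and 15 libraries and KRT16 had 2 to 13 counts, which limits what can be said of them.

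The numbers of all genes called moved more, and the cause was not tested. For sgPRMT5-1 against sgNeg, 586 genes were called, 1035 with no filter, and 227 to 554 with a library left out (286 without sgNeg replicate 1, 382 without sgNeg replicate 2, 227 without sgPRMT5-1 replicate 2, 283 without replicate 3), while 4 keratins were called in all of these. For sgPRMT5-2, the number was 5729 and 4469 to 5686 with a library left out, with 4 to 5 keratins. For sgWDR77-1, it was 369, 1334 with all 15 libraries in 1 fit, and 63 to 981 with a library left out (136, 138, and 63 without sgNeg replicates 1, 2, and 3, 981 and 201 without sgWDR77-1 replicates 1 and 2), with 3 to 4 keratins. For sgWDR77-2, it was 682 and 285 to 617 with a library left out (454, 420, and 443 without sgNeg replicates 1, 2, and 3, 285 without sgWDR77-2 replicate 2), with 5 keratins.

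Between the PRMT5 guides, 2653 genes were called, 1071 with all 15 libraries in 1 fit, and 1398 to 4649 with a library left out (1438, 1612, and 4649 without sgPRMT5-1 replicates 1, 2, and 3, 1465, 1398, and 1576 without sgPRMT5-2 replicates 1, 2, and 3), with 3 to 4 keratins. Between the WDR77 guides, 17 genes were called, 11 with library totals alone, 129 with no filter, 341 with all 15 libraries in 1 fit, and 0 to 206 with a library left out (206 and 8 without sgWDR77-1 replicates 1 and 2, 0, 1, and 2 without sgWDR77-2 replicates 1, 2, and 3), with 0 to 2 keratins. The count of 0 came from limma voom, where 926 of 14074 genes had an unadjusted p under 0.05, and limma-trend also called 0. Between the knockouts, 1962 genes were called, 3804 with all 15 libraries in 1 fit, and 933 to 3260 with a library left out (1300 without sgPRMT5-1 replicate 3, 933, 1001, and 1013 without sgPRMT5-2 replicates 1, 2, and 3, 1045 and 1157 without sgWDR77-1 replicates 2 and 3, 3260 without sgWDR77-2 replicate 1), and the keratins called were 2, 4 in the fit of all 15 libraries, and 2 to 3 with a library left out.

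Over all alternatives, the median log2 fold change of all genes moved by -0.09 to 0.07. The share of called genes that were higher was 46.9% with sgPRMT5-1 and became 36.5% with RLE scaling, 61.3% with upper quartile scaling, and 27.8% with library totals alone. Library totals alone and upper quartile scaling moved it from 53.1% to 39.5% and 62.9% with sgPRMT5-2, from 39.1% to 31.6% and 47.7% with sgWDR77-2, from 50.3% to 42.5% and 62.8% between the PRMT5 guides, and from 57.1% to 37.7% and 58.3% between the knockouts. Between the WDR77 guides it was 82.4%, 61.2% with no filter, and 53.4% without sgWDR77-1 replicate 1. With sgWDR77-1 it was 31.2%, 34.2% and 40.9% with these scalings, and 26.5%, 17.4%, and 1.59% without sgNeg replicates 1, 2, and 3.

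Replicate numbers showed no general pairing of the samples over all groups. Of 30 pairs of libraries with the same number, 2 had a correlation of deviations above 0.1 (-0.210 to 0.179), as did 5 of 60 pairs with different numbers (-0.146 to 0.301). Groups differed in this. Between sgNeg and sgPRMT5-1, same numbers gave 0.044, 0.082, and 0.179, and different numbers -0.124 to 0.061. Between sgNeg and sgWDR77-2, same numbers gave -0.169, 0.055, and -0.100. Pairing within a single comparison was not tested. With the replicate number as a block, 1392 genes were called with sgPRMT5-1 and 364 with sgWDR77-2, the other counts stayed within 1.5 times, and no call of the 10 keratins changed. Among the genes of the lists, the block ended the sgWDR77-2 calls of SOX2, TFAP2C, DST, S100A2, and SFN (limma voom adjusted p = 0.0503 to 0.0985) and the sgWDR77-1 call of KRT18 (0.0657), and with sgPRMT5-1 it added DST, KRT80, TGFA, and NFE2L2 as higher and LCN2, S100A9, SERPINB3, and KLF5 as lower (0.00163 to 0.045). Calls were also lost with all 15 libraries in 1 fit (ELF3 and FOSL1 with sgPRMT5-1, 0.0925 and 0.0726, and EHF, PERP, and TFAP2A with sgPRMT5-2, 0.171, 0.106, and 0.06), library totals alone (FOSL1 with sgPRMT5-1, 0.0663, and PKP3 with sgWDR77-1, 0.0564), upper quartile scaling (EHF with sgPRMT5-2, 0.161, and KRT18 and PKP3 with sgWDR77-1, 0.0694 and 0.0538), and limma-trend (KRT18 with sgWDR77-1, 0.0503, and SFN with sgWDR77-2, 0.0561). Calls gained in the fit of all 15 libraries were all with sgWDR77-1: DST, GRHL1, HBEGF, and SOX9 as higher and KRT8, S100A2, SOX2, and TFAP2C as lower (0.00377 to 0.0431). With no filter, the gains were DST, KRT80, and NFE2L2 as higher and LCN2 and S100A9 as lower with sgPRMT5-1, DSP as lower with sgPRMT5-2, DST as higher and KRT8 and S100A2 as lower with sgWDR77-1, and ITGB4 as higher with sgWDR77-2 (0.000516 to 0.0443). Other scalings gained DST and TGFA as higher and KLF5 as lower with sgPRMT5-1, NFE2L2 as higher and DSC3, DSP, GRHL2, and TP63 as lower with sgPRMT5-2, and COL17A1 as lower with sgWDR77-2 (0.00485 to 0.0494).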
